A study of Homo sapiens with 8 samples.

Results

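The effect of LKB1 knockdown on each gene was compared between T98 and U87, 2 established human glioblastoma lines. The quantity described is an interaction: the log2 difference between LKB1 siRNA and control siRNA in T98, minus the same difference in U87. All genes with a value of 10 or more in at least 2 libraries were taken, which gave 14282 of the 18787 gene symbols in the deposited table. RNA was sequenced 72 h after transfection from 8 bulk libraries, 2 in each of 4 groups: T98 with control siRNA, T98 with LKB1 siRNA, U87 with control siRNA and U87 with LKB1 siRNA. Both lines were grown in DMEM with serum and transfected with Lipofectamine RNAiMAX, per the labels' protocols. Each condition is 1 established line, and no siRNA sequence was at hand. The labels mention duplicates without stating that they were separate transfections, so the tests measure the spread of these libraries alone, and that spread may be technical.

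LKB1, encoded by STK11, is a kinase that needs STRAD, a pseudokinase, and MO25, a scaffold, for its activity, and it switches on AMPK and a family of related kinases. It is known as a tumour suppressor that links the energy state of a cell to growth, polarity and division. Genes of DNA replication are commonly driven by E2F factors near the start of S phase. Genes of mitosis are commonly held down and then released through a promoter element called the cell cycle genes homology region (CHR).

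The recovered depth was 25234334 to 38031734 reads per library. By the column names, lane 2 carried 1 library of each group, lane 4 the remaining T98 libraries and lane 5 the remaining U87 libraries. Deposited values are reads moved to a common library size, with no scaling for gene length, and are printed in the order lane 2 then lane 4 for T98 and lane 2 then lane 5 for U87. Within a group, the log2 difference between lanes had an SD of 0.86 to 0.89, and it was shared by the control and LKB1 libraries of a line (r = 0.72 across genes in T98 and 0.81 in U87). Each knockdown effect was therefore taken within a lane. Of the 24 glial markers listed, 13 to 15 reached 10 in the groups; VIM (34000 to 75300 in T98, 128000 to 292000 in U87), CD44 and SOX9 were abundant, while GFAP, the defining astrocyte filament, was 1.85 to 8.6 in T98 and 21.6 to 50.7 in U87, and OLIG1 was at 0. Summed markers of other lineages came to 610.1 to 1203.1 in T98 and 12156.2 to 23124.7 in U87. CD68, a lysosomal protein, supplied most of that sum, and PTPRC stayed under 10 throughout.

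The target itself was reduced in both lines. STK11 (NM_000455, chr19:1205798-1228434, hg19) had values of 1999 and 2041 with control siRNA and 340 and 588 with LKB1 siRNA in T98. In U87, STK11 had 2445 and 2041 with control siRNA and 361 and 385 with LKB1 siRNA. The LKB1 libraries lay below the control libraries in every lane pair. STK11 fell by 2.17 on the log2 scale in T98 (SE 0.20, limma-trend adjusted p = 0.00254) and fell by 2.58 in U87 (SE 0.20, adjusted p = 0.00195). The difference in STK11 effect between the lines was 0.41 (SE 0.28, adjusted p = 0.522), and it ranged from 0.03 to 0.79 when each library was left out in turn. None of the complex partners passed for the difference, which was −0.08 for STRADA, −0.03 for STRADB, 0.06 for CAB39 and −0.10 for CAB39L.

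Across genes the 2 effects were related but not the same. The T98 and U87 effects had a Pearson r of 0.46 (Spearman rho 0.47) over 14282 genes, which are not independent replicates. The lane pairs of 1 line had an r of 0.58 in T98 and 0.59 in U87, against 0.30 between the lane 2 pairs of the 2 lines and 0.39 between the lane 4 and lane 5 pairs. The effects had an SD of 0.60 in T98 and 0.53 in U87, and their difference had an SD of 0.59 around a median of 0.04.

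Cell division genes made up much of what differed. The difference passed limma-trend with a Benjamini-Hochberg adjusted p under 0.05 for 68 genes, which is 0.476% of those tested. Of these, 53 (0.371%) were higher in T98 and 15 (0.105%) were lower in T98, and 2110 genes had an unadjusted p under 0.05. In the single lines, 1211 genes rose (8.48%) and 1047 fell (7.33%) in T98, and 755 rose (5.29%) and 844 fell (5.91%) in U87. In all 68 genes both T98 lane pairs lay on the same side of both U87 lane pairs. Among all tested genes, 26.8% showed this with T98 above and 21.5% with T98 below. The call is made from these same lane pairs, so the separation largely follows from it and adds no support. The adjusted p-values of the 68 lay between 0.0271 and 0.0476, so all were close to the threshold. With the lane term taken out of the model 0 genes passed by limma-trend and 367 had an unadjusted p under 0.05, and with no filter on low values 0 passed and 2259 had one. Leaving out any 1 of the 4 U87 libraries also left 0 genes, leaving out either T98 lane 2 library left 3, and leaving out a T98 lane 4 library gave 229 (control) or 244 (LKB1). In bulk RNA, fewer dividing cells and less RNA of a gene per cell cannot be told apart, which applies to every cell cycle result here.

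**Figure D1:**
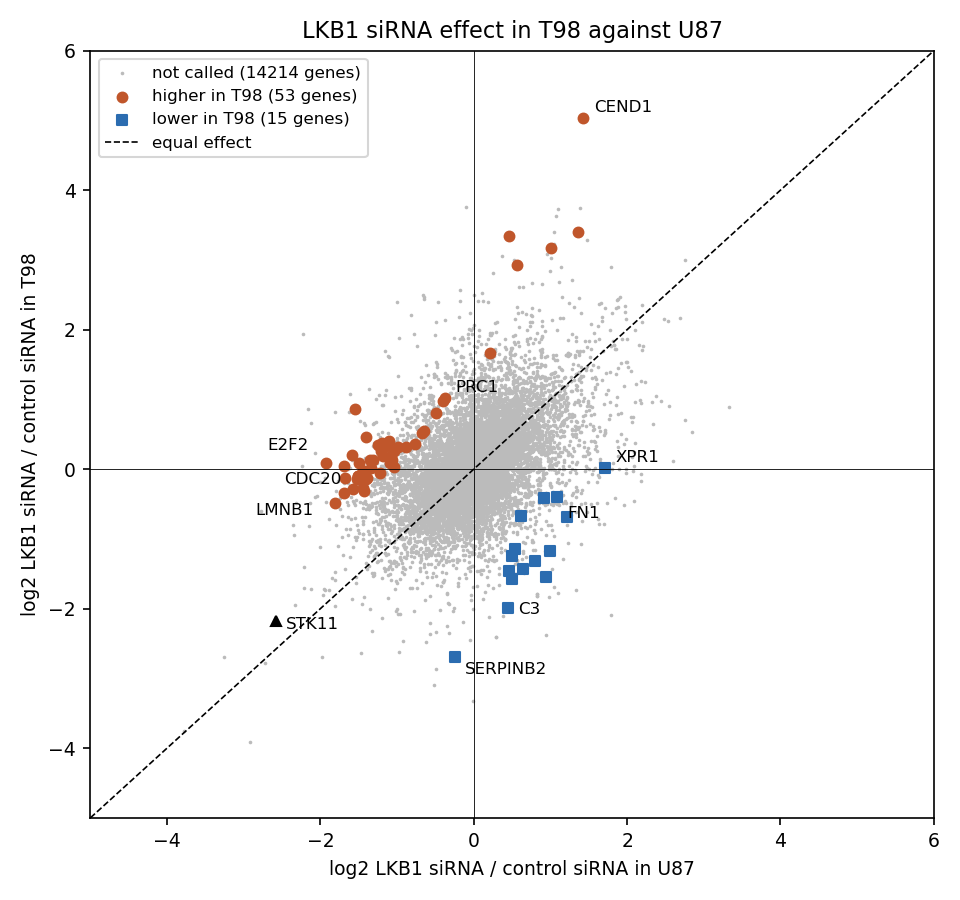
Log2 effect of LKB1 siRNA in T98 (vertical axis) against U87 (horizontal axis) for 14282 genes, with the 53 genes whose effect was higher in T98 as circles, the 15 whose effect was lower as squares, STK11 as a triangle and equal effects as a dashed line. Most circles sit at the left near 0 on the T98 axis, where U87 fell and T98 moved little, and the squares sit below the line.

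The 53 genes higher in T98 had a median effect of 0.13 in T98 and −1.31 in U87, and differences of 1.07 to 3.60 (median 1.39). In 40 of them the gene fell in U87 and was not called in T98, where the effects spanned −0.34 to 0.46 against −1.93 to −0.77 in U87. These 40 include cyclins and their kinase (CCNA2, CCNB1, CDK1), E2F1, E2F2 and MYBL2, spindle and kinetochore proteins (TPX2, NDC80, NUSAP1, ZWINT) and replication factors (MCM7, RRM2, UHRF1). LMNB1, a nuclear lamina gene, fell in both lines. FAM83D, NEURL1B and UBE2S rose in T98 and fell in U87, and 6 genes (CDKN3, KIAA0408, PRC1, PTGES, SLC4A8, TMEM100) rose in T98 and were not called in U87. CEND1, FAIM2 and KIF5C rose in both lines. Of the 53, 21 belong to the 5 cell cycle and DNA repair lists. Those lists hold 54 (G2/M), 53 (S phase), 17 (E2F and RB), 19 (G1) and 33 (DNA repair) of the 14282 genes tested. FAM72A, FAM72B and FAM72D are near-identical copies whose reads cannot be assigned with certainty.

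Short stretches of the promoters of some genes in this group are shown as examples of a pair of sequence words known from S phase and mitosis genes. In RefSeq promoters on GRCh38.p14, running from 250 bases before to 50 bases after each start, 4 E2F-type words (TTTCCCGC, TTTCGCGC, TTTGCCGC, TTTGGCGC) and 2 CHR-type words (TTTGAA and its variant TTCGAA) were searched on both strands. The E2F-type and CHR-type words share no overlap with each other, and TTCGAA reads the same on both strands. Capitals mark the word, the sequence runs in the direction of the gene, and 1 copy per gene is given.
E2F1: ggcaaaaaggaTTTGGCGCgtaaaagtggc
E2F2: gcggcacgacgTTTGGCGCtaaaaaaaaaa
MCM7: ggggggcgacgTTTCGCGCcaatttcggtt
UHRF1: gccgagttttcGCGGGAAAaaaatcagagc
CDC20: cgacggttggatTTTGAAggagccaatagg
PLK1: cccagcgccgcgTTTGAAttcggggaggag
CENPA: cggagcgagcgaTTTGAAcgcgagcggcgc
PRC1: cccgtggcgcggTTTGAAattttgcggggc
These lie at chr20:33686387-33686416 (E2F1, minus strand), chr1:23531257-23531286 (E2F2, minus), chr7:100101388-100101417 (MCM7, minus), chr19:4909476-4909505 (UHRF1, plus), chr1:43358904-43358933 (CDC20, plus), chr16:23678848-23678877 (PLK1, plus), chr2:26786026-26786055 (CENPA, plus) and chr15:90994538-90994567 (PRC1, minus), all on GRCh38.p14. The UHRF1 word is on the opposite strand, as GCGGGAAA. The examples look more cleanly parted than the group is: CENPA, CDK1, NUSAP1 and CDCA5 held both kinds of word. ASF1B, of the S phase list, held a CHR-type word and no E2F-type word. PTGES, NEURL1B and KIAA0408, outside the cell cycle lists, also held a CHR-type word.

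Of the 53 genes higher in T98, 41 matched the RefSeq table by symbol, with 59 promoter windows. Windows of the same gene can overlap, so a site can be counted more than once, as in CDK1 and ZWINT. An E2F-type word was in 18.6% of these windows, against 4.6% for all genes tested and 3.3% for all 35116 windows. A CHR-type word was in 49.2%, against 12.4% and 16.4%. The S phase list had the E2F-type word in 40.3% and the CHR-type word in 6.5% of windows, and the G2/M list had 6.9% and 67.2%. Neither word was found in the 14 windows of the 12 matched genes that were lower in T98. With so few windows, this cannot be told apart from the shares for all genes tested. A match describes the letters only.

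E2F1, E2F2 and MYBL2, which drive the transcription of replication and mitosis genes, fell in U87. E2F1 had values of 3530 and 3329 with control siRNA and 3848 and 3241 with LKB1 siRNA in T98, and 4404 and 3964 against 1180 and 1426 in U87. E2F2 had 684 and 610 against 675 and 702 in T98, and 1489 and 1272 against 337 and 386 in U87. For both genes the T98 groups overlapped and the U87 groups were far apart. The difference between the lines was 1.73 for E2F1 (SE 0.20, limma-trend adjusted p = 0.0349), 2.02 for E2F2 (SE 0.23, adjusted p = 0.0349) and 1.12 for MYBL2 (SE 0.17, adjusted p = 0.0444). The E2F and RB list as a whole did not follow: 3 of 17 members passed, all higher in T98, and the list's median was 0.13. In U87, 6 of the 17 fell and none rose, against 5.91% and 5.29% of all genes. In T98, 3 fell and 1 rose, against 7.33% and 8.48%. Both T98 lane pairs lay above both U87 pairs for 8 and below for 3, against 26.8% and 21.5% of all genes. RB1 (0.00), the retinoblastoma protein, and E2F4 (−0.04), a repressor E2F, had differences close to 0, and E2F7, another repressor, was at −0.67 (adjusted p = 0.262). The G1 list of cyclins, CDKs and inhibitors had a median of 0.07, and none of its 19 genes passed. In that list the p53 target and CDK inhibitor CDKN1A had −0.51 (adjusted p = 0.387), and the G1 kinase CDK6 had 0.04, having fallen in both lines.

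All 54 tested genes of the G2/M and mitosis list had a positive difference, from 0.30 for BUB3 to 1.79 for CENPA, where 53.7% of all genes were positive. The list's median effect was −0.20 in T98 and −1.35 in U87, and its median difference was 1.05, against 0.04 for all genes. In U87, 51 of the 54 fell and none rose, against 5.91% and 5.29% of all genes. In T98, 4 fell and 2 rose, against 7.33% and 8.48%. The difference passed for 14 genes, all higher in T98. Both T98 lane pairs lay above both U87 pairs for 51 genes, against 26.8% of all genes. The other 3, CENPF, ASPM and MKI67, are long transcripts whose value in T98 lane 2 was far lower with LKB1 siRNA than with control siRNA. MKI67, the proliferation antigen, had 16936 and 8089 against 5930 and 8948 in T98, and 3443 and 12099 against 1981 and 4141 in U87. The median difference was 1.10 between the lane 2 pairs and 1.15 between the lane 4 and lane 5 pairs.

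CDC20, which activates the ligase that starts anaphase, had 10773 and 6780 with control siRNA and 11138 and 7421 with LKB1 siRNA in T98. In U87, CDC20 had 3366 and 2946 against 1136 and 1091. PLK1, a mitotic kinase, had 5367 and 3483 against 7052 and 4288 in T98, and 3916 and 3879 against 1502 and 1798 in U87. Both genes were a little higher with LKB1 siRNA within each T98 lane and much lower within each U87 lane. The difference was 1.59 for CDC20 (SE 0.16, limma-trend adjusted p = 0.0314) and 1.59 for PLK1 (adjusted p = 0.0349). CENPA, the histone H3 variant of the centromere, had 876 and 623 against 993 and 731 in T98, and 769 and 522 against 213 and 208 in U87 (difference 1.79, adjusted p = 0.0439). BIRC5, the survivin subunit of the chromosomal passenger complex, had a difference of 1.48 (SE 0.21, adjusted p = 0.0439).

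PRC1, which bundles the midzone of the spindle, was 1 of the 2 members of the G2/M list that rose in T98. Its values were 5216 and 5625 with control siRNA and 11395 and 10629 with LKB1 siRNA in T98, and 2872 and 2810 against 2163 and 2199 in U87. PRC1 rose by 1.02 on the log2 scale in T98 and was not called in U87, and the difference was 1.40 (limma-trend adjusted p = 0.0349). UBE2S, an E2 enzyme of the anaphase-promoting complex, rose in T98 (12036 and 6355 against 19186 and 8460) and fell in U87 (8818 and 6124 against 5377 and 4095). Its 2 T98 lanes differ so much that the groups overlap, and only within a lane is the rise visible; the difference was 1.19 (SE 0.17, adjusted p = 0.0439). HMGB2, a chromatin protein of dividing cells, had 5894 and 5088 against 8679 and 6540 in T98, and 3544 and 4015 against 1131 and 1805 in U87 (difference 1.86, adjusted p = 0.0349). LMNB1, by contrast, fell in T98 too (11600 and 8467 against 7470 and 6743), though by less than in U87 (2987 and 3489 against 808 and 1040), with a difference of 1.33 (SE 0.18, adjusted p = 0.0439).

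The mitotic cyclins and their kinase followed the same pattern. CCNB1, cyclin B1, had 11487 and 8139 with control siRNA and 10619 and 7717 with LKB1 siRNA in T98, and 7989 and 5718 against 2753 and 2271 in U87. CDK1, its catalytic partner, had 3860 and 5694 against 4353 and 4821 in T98, and 3467 and 4039 against 1222 and 1579 in U87. The T98 groups of both overlapped, and in U87 every LKB1 library lay below every control library. The difference was 1.34 for CCNB1 (limma-trend adjusted p = 0.0383), 1.40 for CDK1 (adjusted p = 0.0439) and 1.38 for CCNA2, cyclin A2 (adjusted p = 0.0439). PKMYT1, a kinase that holds CDK1 inactive, and FBXO5, an inhibitor of the anaphase-promoting complex, differed alike, by 1.44 and 1.26. CDKN3, a phosphatase of CDKs, instead rose in T98 from 694 and 501 to 1312 and 807, and had 1362 and 976 against 940 and 709 in U87 (difference 1.30, adjusted p = 0.0466). TOP2A, the topoisomerase of dividing cells, fell in U87 (9371 and 12344 against 3886 and 5005) and had a difference of 0.99 that did not pass (adjusted p = 0.104).

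S phase genes showed a smaller difference of the same sign. All 53 tested genes of the DNA replication and S phase list had a positive difference, with a median of 0.79. Both T98 lane pairs lay above both U87 pairs for 51, against 26.8% of all genes. The list's median effect was −0.11 in T98 and −0.91 in U87. In U87, 49 members fell, against 5.91% of all genes, and only DNMT1, the maintenance DNA methyltransferase, rose. RRM2, the regulated subunit of ribonucleotide reductase, had 10182 and 7204 with control siRNA and 10230 and 6851 with LKB1 siRNA in T98, and 9776 and 11205 against 3362 and 4397 in U87. The RRM2 values in T98 changed by less than the gap between lanes, and the U87 groups did not overlap (difference 1.41, limma-trend adjusted p = 0.0349). UHRF1 (1.20), which recruits DNMT1 to new DNA, ASF1B (1.36), a histone chaperone, and MCM7 (1.18), a helicase subunit, also passed, each with an adjusted p of 0.0439. No other member of the list passed. The DNA repair and checkpoint list had a median of 0.56 with 30 of 33 genes positive and none past the threshold. ATR and ATM, the checkpoint kinases, were among its 3 negative members, at −0.61 and −0.56. The 29 p53 targets had a median of −0.01 with none past the threshold.

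**Figure D2:**
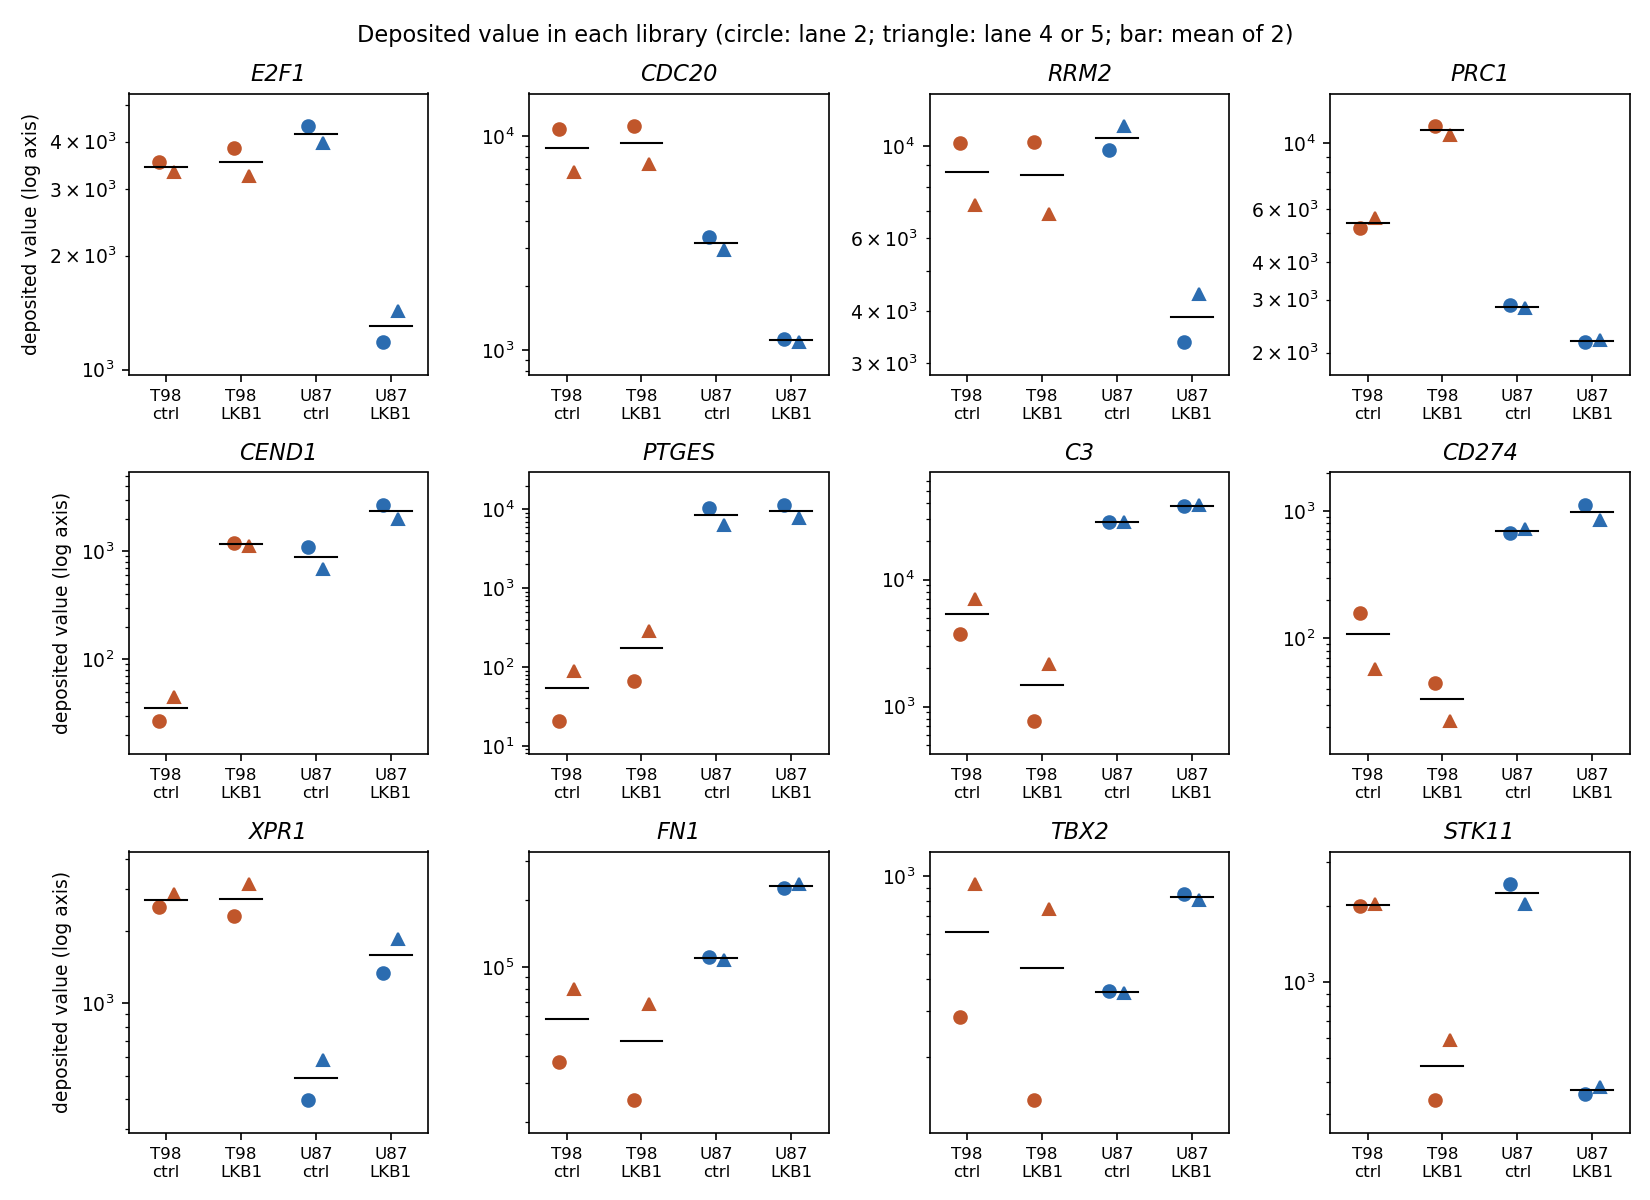
Deposited value in each of the 8 libraries on log axes for 12 genes, with circles for lane 2, triangles for lane 4 (T98) or lane 5 (U87) and bars for the mean of 2 libraries. E2F1, CDC20 and RRM2 drop in U87 and stay level in T98, C3 and CD274 drop in T98, FN1 and XPR1 climb in U87, and STK11 drops in both.

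Among the 68 called genes, the largest difference was in a neuronal gene. CEND1, which is linked to cell cycle exit in neurons (chr11:787110-790126, hg19), had 26.7 and 44.7 with control siRNA and 1198 and 1129 with LKB1 siRNA in T98, and 1090 and 682 against 2691 and 2011 in U87. Both lines rose, with no overlap between groups, and T98 reached with LKB1 siRNA about the level that U87 had without it. The difference was 3.60 on the log2 scale (SE 0.30, limma-trend adjusted p = 0.0271). In units of the deposited value, the mean rise was 1128 in T98 and 1465 in U87, so the order of the lines is the opposite on that scale. KIF5C, a neuronal kinesin heavy chain, and FAIM2, an inhibitor of FAS signalling abundant in brain, had the same form. KIF5C had 35.4 and 175 against 424 and 1231 in T98, and 1960 and 1361 against 4183 and 2573 in U87 (difference 2.17, adjusted p = 0.0415). FAIM2 had 10.8 and 41.9 against 127 and 445 in T98, and 1353 and 656 against 3118 and 1885 in U87, a difference of 2.04. Their mean rises in deposited value were also smaller in T98, at 723 against 1717 for KIF5C and 260 against 1497 for FAIM2. The order of the lines reversed on that scale for 8 of the 68 called genes: CEND1, FAIM2, KIF5C, KIAA0408, LMNB1, PTGES and SLC4A8 among the 53, and SERPINB2 among the 15.

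The neuronal list as a whole did not part the lines in the same way. Of its 36 genes, 18 rose in T98 and 14 in U87, against 8.48% and 5.29% of all genes. The median effects were 0.68 and 0.65, and only CEND1, KIF5C and FAIM2 passed for the difference. The list's median difference was 0.47 in the lane 2 pairs and −0.01 in the lane 4 and lane 5 pairs. SLC4A8, a sodium-bicarbonate transporter, rose in T98 from 18 and 8.48 to 181 and 100, and had 367 and 453 against 509 and 621 in U87 (difference 2.87, SE 0.28, limma-trend adjusted p = 0.0271). NEURL1B, a ubiquitin ligase that acts on Notch ligands, moved in opposite directions, with 235 and 548 against 358 and 1198 in T98 and 2185 and 1171 against 730 and 411 in U87. Its difference was 2.41 (SE 0.24, adjusted p = 0.0271). PTGES, a prostaglandin E synthase, rose in T98 from 20.5 and 88.5 to 66.6 and 282, and stayed far higher in U87, at 10419 and 6362 against 11395 and 7853 (difference 1.44, adjusted p = 0.0439).

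**Figure D3:**
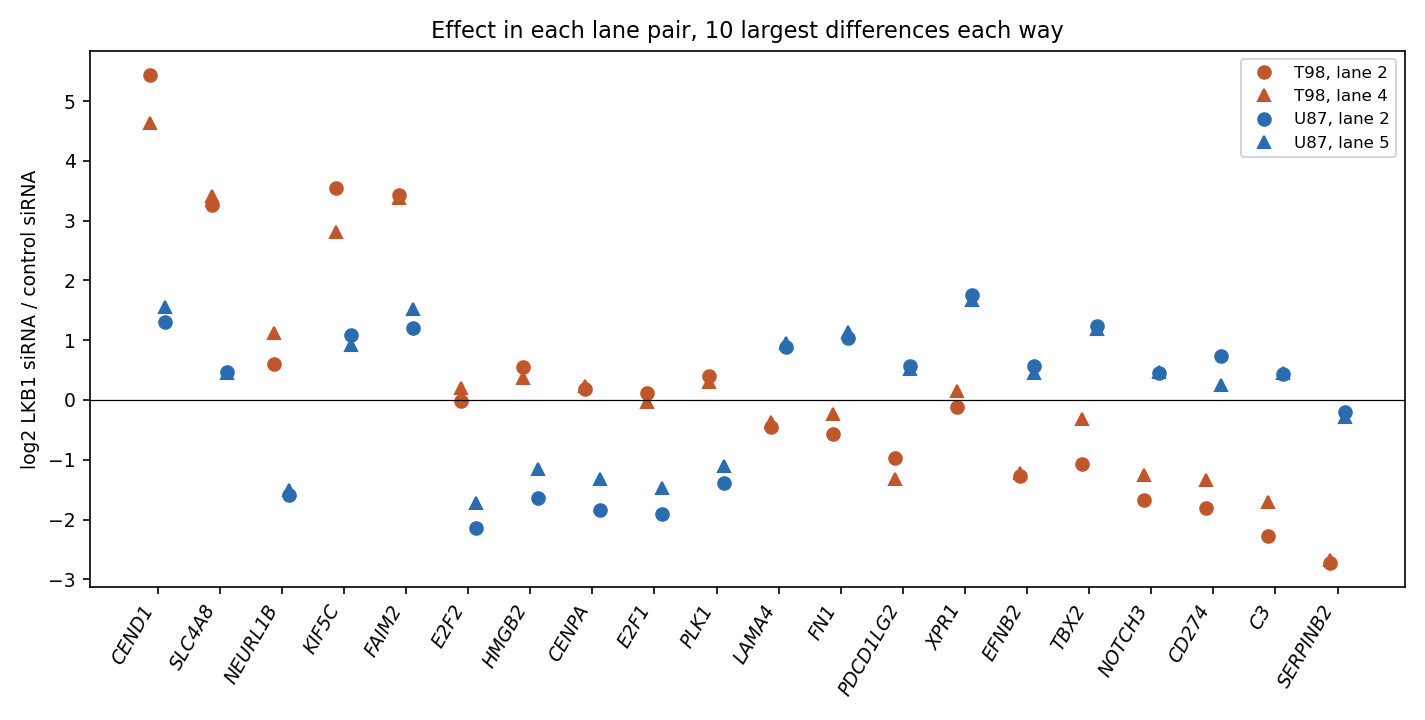
Log2 effect of LKB1 siRNA in each of the 4 lane pairs for the 10 genes with the largest positive and the 10 with the largest negative difference among those chosen by the naming rule, with T98 and U87 as separate colours and lane 2 pairs as circles. The rule took only genes in which both T98 points lie on 1 side of both U87 points. The U87 pairs of CEND1 sit above 0 as the T98 pairs do.

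The 15 genes lower in T98 held immune, matrix and signalling genes. None belongs to the cell cycle lists, which says little, as the G2/M and S phase lists hold 54 and 53 of 14282 genes. Their median effect was −1.25 in T98 and 0.64 in U87, and their differences had a median of −1.92. In 8 the gene fell in T98 and was not called in U87 (ALDH1A1, BNC2, C3, CD274, EFNB2, NOTCH3, PDCD1LG2, SERPINB2). In 4 it fell in T98 and rose in U87 (KIAA1324, LAMA4, PCSK5, SEL1L3), and in 3 it rose in U87 and was not called in T98 (FN1, TBX2, XPR1). In 11 of the 15 the control siRNA level was lower in T98 than in U87, which held for 50.3% of all genes tested. It held for 15 of the 53 genes higher in T98. The line means of PCSK5, BNC2 and ALDH1A1 were under 50 in 1 line.

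C3, the central complement component, had 3712 and 7047 with control siRNA and 766 and 2169 with LKB1 siRNA in T98. In U87, C3 had 28233 and 28207 against 37964 and 38744. The T98 values fell in both lanes and the U87 values did not, and the difference was −2.43 (limma-trend adjusted p = 0.0271). CD274 (chr9:5450503-5470567, hg19), which encodes PD-L1, had 156 and 57.8 against 44.2 and 22.2 in T98, and 674 and 716 against 1116 and 856 in U87. PDCD1LG2 (chr9:5510545-5571282), the neighbouring gene for PD-L2, had 175 and 87.2 against 88.5 and 34.3 in T98, and 1053 and 1048 against 1552 and 1506 in U87. Both ligands of the immune checkpoint receptor PD-1 fell in T98 and were not called in U87, and the difference was −2.06 for CD274 and −1.69 for PDCD1LG2, each with an adjusted p of 0.0439. SERPINB2, a plasminogen activator inhibitor, fell in T98 from 147 and 70.1 to 21.5 and 10.1, and had 1437 and 8601 against 1246 and 7032 in U87 (difference −2.45, adjusted p = 0.0271). The 2 U87 lanes differ widely for SERPINB2, yet the log2 effect within each was small. In deposited value the mean fell by 92.7 in T98 and fell by 880 in U87, so the order of the lines is the opposite on that scale.

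The broader list of NF-kB targets and cytokines leaned the same way without a single call. Of its 37 genes, 33 had a negative difference, with a median of −0.58 against 0.04 for all genes, of which 53.7% were positive. In 20 both T98 lane pairs lay below both U87 pairs, against 21.5% of all genes. In T98, 16 members fell and 1 rose, against 7.33% and 8.48% of all genes. In U87, 3 fell and 4 rose, against 5.91% and 5.29%. TNFAIP3, a brake on NF-kB, had 692 and 386 against 300 and 226 in T98, and 1548 and 1268 against 1934 and 1654 in U87. TRAF1, an adaptor of TNF receptors, had 842 and 194 against 278 and 84.5 in T98, and 565 and 649 against 724 and 643 in U87. Their differences were −1.34 and −1.57, each with a limma-trend adjusted p of 0.0616. The interferon-stimulated list had a median of −0.03, with 21 of 45 genes positive.

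Fibronectin and a laminin chain were the matrix genes that passed. FN1, fibronectin, had 37422 and 79986 with control siRNA and 25151 and 67974 with LKB1 siRNA in T98, and 111666 and 108141 against 228078 and 236981 in U87. The T98 lanes overlapped between groups, the U87 groups did not, and the difference was −1.49 (SE 0.21, limma-trend adjusted p = 0.0439). LAMA4, a laminin chain, fell in T98 (5390 and 6357 against 3935 and 4902) and rose in U87 (4606 and 546 against 8479 and 1057), with a difference of −1.33. The U87 lanes of LAMA4 differ more than the siRNA groups do. Of the 32 integrins, laminins and fibronectin-related genes, 2 passed, both lower in T98, and the median was −0.39. In U87 11 rose and in T98 7 rose, against 5.29% and 8.48% of all genes. ITGA2, a collagen-binding integrin, was next, at −1.68 (adjusted p = 0.0514).

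Signalling genes completed the group. XPR1, a phosphate exporter, had 2511 and 2842 against 2308 and 3136 in T98, and 395 and 581 against 1333 and 1845 in U87, rising in U87 and not called in T98 (difference −1.70). TBX2, a T-box repressor, had 286 and 932 against 136 and 747 in T98, and 361 and 355 against 856 and 811 in U87 (difference −1.91, limma-trend adjusted p = 0.0456). NOTCH3 had 261 and 708 against 81.4 and 297 in T98, and 567 and 1657 against 779 and 2296 in U87, a difference of −1.92. EFNB2, the ephrin-B2 ligand, had 103 and 66.4 against 42 and 27.9 in T98, and 3081 and 4148 against 4543 and 5646 in U87, a difference of −1.75. In NOTCH3 and EFNB2 the T98 values fell within each lane while the U87 values were higher with LKB1 siRNA in each lane. SEL1L3 moved in opposite directions in the lines, with 2709 and 2292 against 1807 and 1353 in T98 and 1209 and 4792 against 2025 and 6752 in U87, a difference of −1.29. NOTCH3 was the only 1 of 17 Notch pathway genes to pass, and the 43 receptor tyrosine kinases and ligands had a median of −0.10 with EFNB2 alone past the threshold.

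A further 3 genes lower in T98 were outside the naming rule, KIAA1324 because its symbol is provisional and the others because of a low mean in 1 line, and were picked after their values were seen. KIAA1324, an oestrogen-regulated transmembrane protein, had 452 and 166 with control siRNA and 196 and 74.3 with LKB1 siRNA in T98, and 1268 and 1820 against 2282 and 3984 in U87 (difference −2.17, limma-trend adjusted p = 0.0271). PCSK5, a proprotein convertase, fell in T98 from 40.6 and 76 to 10.5 and 31.8 and rose in U87 from 286 and 680 to 573 and 1262 (difference −2.49, adjusted p = 0.0439). ALDH1A1, a retinaldehyde dehydrogenase, is the reverse in level: T98 had 1046 and 2493 against 432 and 962, and U87 had 9.46 and 4.74 against 16.9 and 9.17 (difference −2.12, adjusted p = 0.0439). The ALDH1A1 effect was −1.32 in T98, and in U87, where each library held only a few reads of it, 0.80 and not called.

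No kinase that LKB1 activates passed for the difference. The 20 tested AMPK subunits and related kinases had a median of −0.09, with BRSK1, a brain-enriched member, at 0.97 (adjusted p = 0.232) and NUAK1 at −0.43. The mTOR list (median 0.12, 29 genes) and the CREB and immediate-early list (median 0.00, 36 genes) held no call either.

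**Figure D4:**
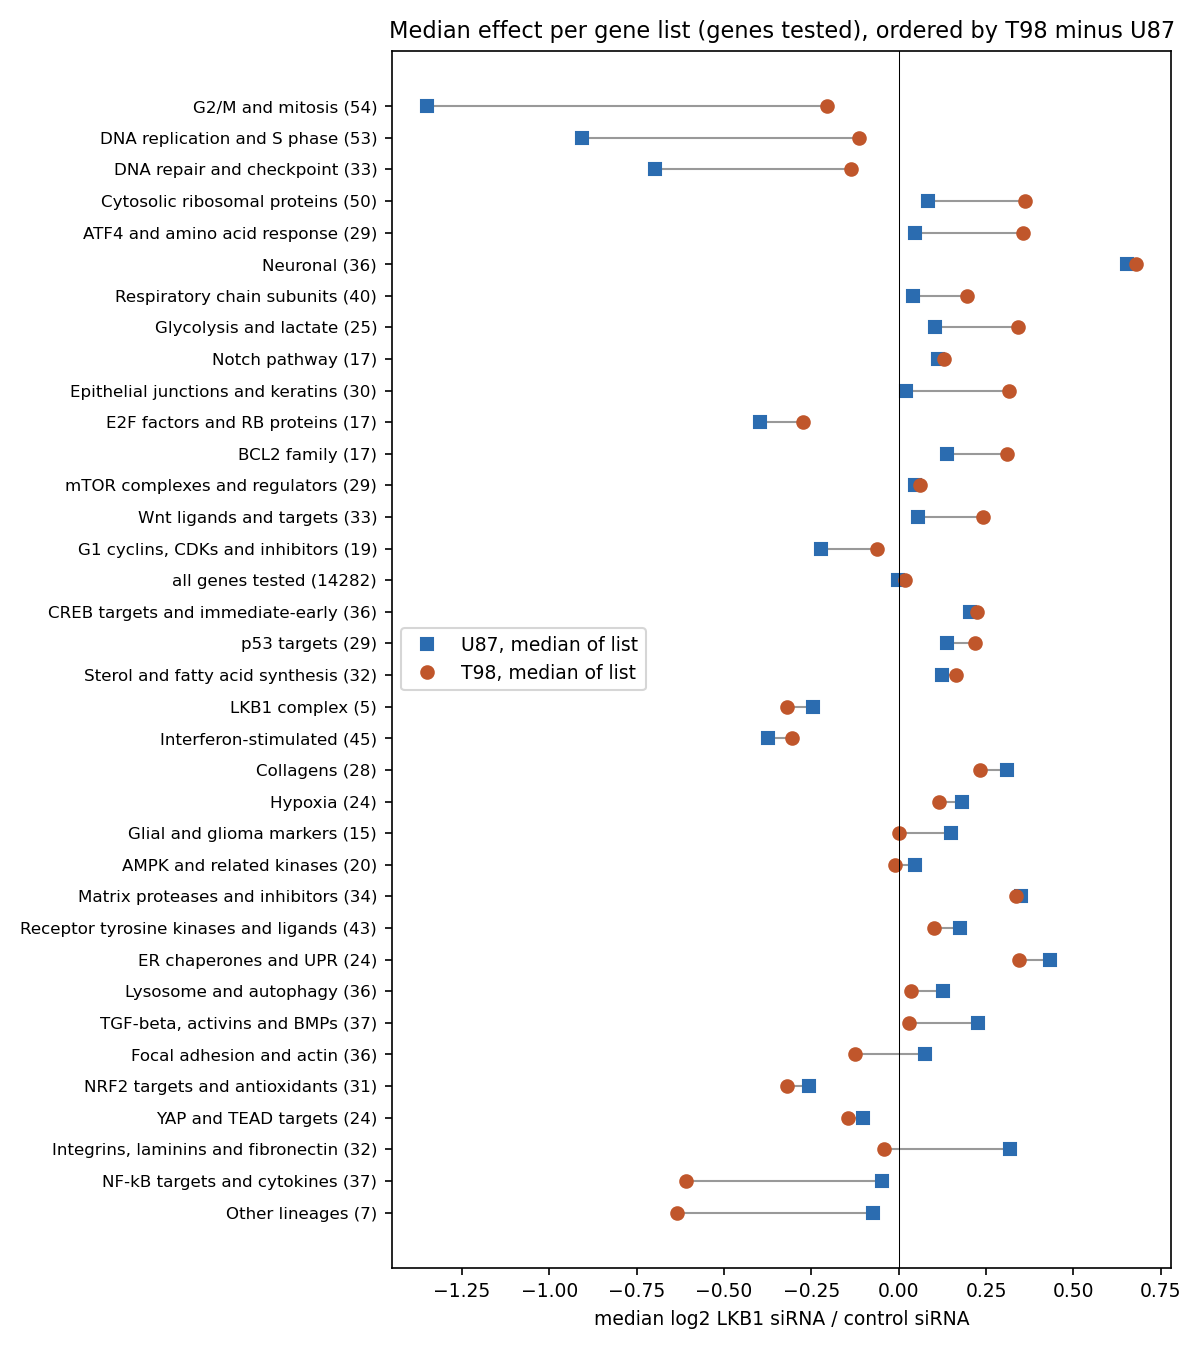
Median log2 effect of LKB1 siRNA in T98 (circles) and U87 (squares) for each gene list and for all genes tested, with the number of genes in brackets and the lists ordered by the median of the gene-by-gene difference. The G2/M, S phase and DNA repair lists show the widest gaps with U87 lower. The NF-kB list and the list of other lineages, with 7 genes tested, show wide gaps with T98 lower.

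Transcript length moved with the difference in the lane 2 pairs. In T98 lane 2, the median effect ran from 0.42 for the 761 genes with transcripts under 1000 bases to −0.33 for the 2203 over 6000 bases. In T98 lane 4 the same medians were 0.04 and 0.00, in U87 lane 2 they were −0.06 and 0.18, and in U87 lane 5 they were 0.09 and −0.05. The difference between lines had a Spearman rho with length of −0.41 in the lane 2 pairs and 0.06 in the lane 4 and lane 5 pairs, across 14282 genes. The 53 genes higher in T98 had a median length of 2515 bases and the 15 lower genes one of 5142, against 3133 for all genes. The 50 cytosolic ribosomal protein genes, which are short, had a median difference of 0.57 in the lane 2 pairs and 0.02 in the lane 4 and lane 5 pairs, and the 40 respiratory chain genes 0.43 and −0.08.

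**Figure D5:**
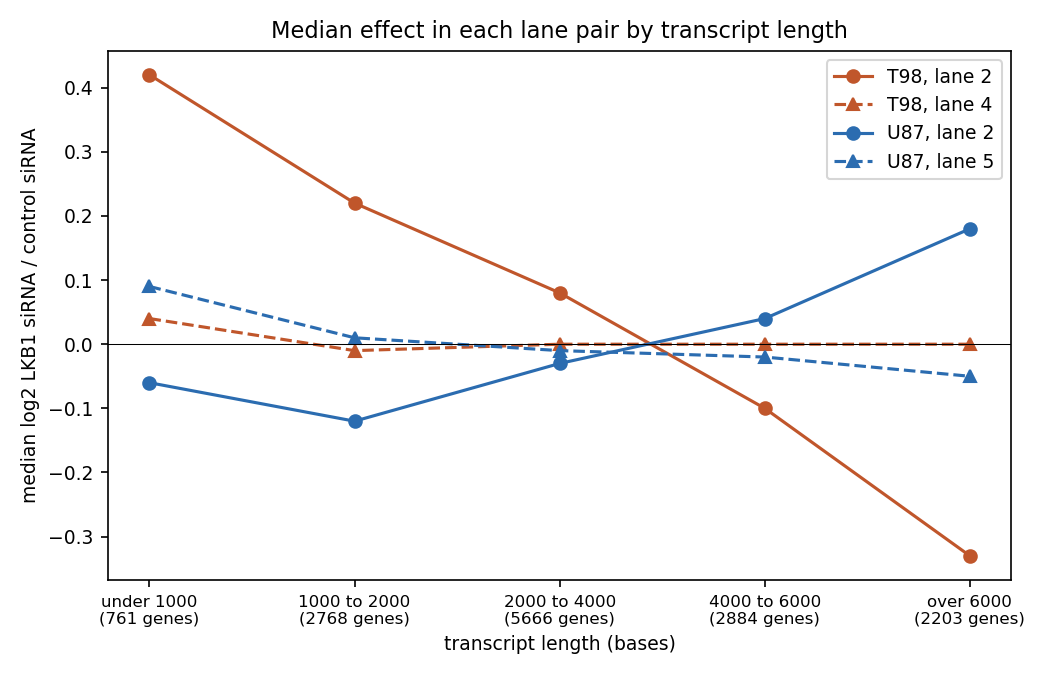
Median log2 effect of LKB1 siRNA in each lane pair for 5 classes of transcript length, with T98 and U87 as separate colours and solid lines for lane 2. The T98 lane 2 line falls from 0.42 to −0.33, the U87 lane 2 line climbs to 0.18, and the lines of lanes 4 and 5 stay near 0.

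When the trend with length was subtracted from each library, a step chosen after seeing the data, 300 genes passed for the difference, 217 higher and 83 lower in T98. These held 67 of the 68 genes above, BNC2 being the exception, and all 68 kept their sign. The median difference of the 53 genes went from 1.39 to 1.30 and that of the 15 from −1.92 to −1.79. The G2/M list then had 38 of 54 genes past the threshold at a median of 1.02, and the S phase list 24 of 53 at a median of 0.76. TNFAIP3 and TRAF1 were among the added genes, as were ITGA2, AURKB, FOXM1 and PCNA. The ribosomal protein median went from 0.29 to 0.07, the respiratory chain median from 0.19 to 0.02, and that of integrins, laminins and fibronectin from −0.39 to −0.17, while the NF-kB median went from −0.58 to −0.68.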

How the data were processed

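Per the submitters' processing notes, the authors aligned reads with TopHat2 2.0.8b to hg19 (GRCh37) and used edgeR. The read counter and annotation release are not stated in the labels. The deposited signal holds 1 normalised value per transcript and library (18815 transcripts, of which the most abundant per symbol was kept). Inverting a negative binomial quantile adjustment to a common library size (dispersion 0.06803) gave whole reads within 0.05 read for 99.99 to 100.0% of values. The library kit marks no strand, so overlapping genes cannot be separated, and 56 tested genes share all values with another.

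The test was limma-trend, from limma 3.58.1 in R 4.3.3, applied to log2(value + 1), which understates changes of low genes. The model had 4 group means and a lane term for each line, 2 residual degrees of freedom, two-sided tests and Benjamini-Hochberg adjustment over 14282 genes. It was run on simulated data with settings of its own, including lane effects of smaller spread than the lane differences here. That run does not measure the error of the calls in these data. Lanes come from the column names; replicate numbers follow sample order and pair nothing. Alternatives were no lane term, other pseudocounts, filters and normalisations, each library left out and, chosen after seeing the data, limma-voom on recovered reads and removal of a length trend. Count models were not run.

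Members and gene lists were chosen with earlier results of these data known. The rule left out provisional symbols (KIAA, FAM and the like) and genes sharing all values with another. Among genes averaging 50 or more in both lines, it named the 10 largest called differences each way with lane pairs not overlapping between lines. From the same genes it named up to 5 called in opposite directions each way. Up to 3 called members each way per list and the LKB1 complex were also named. Other genes were named after their values were seen. Some genes are not reported here.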

Additional observations from a re-analysis of the deposited data

Results flagged for a closer look

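The difference between T98 and U87 itself passed limma-trend for 53 genes that were higher and 15 that were lower in T98, and each named gene below is on the list for that reason. Higher in T98 were CEND1 (3.60), SLC4A8 (2.87), NEURL1B (2.41), KIF5C (2.17), FAIM2 (2.04), E2F2 (2.02), HMGB2 (1.86), CENPA (1.79), E2F1 (1.73), CDC20 (1.59), PLK1 (1.59), BIRC5 (1.48), RRM2 (1.41), PRC1 (1.40), ASF1B (1.36), UHRF1 (1.20), UBE2S (1.19) and MYBL2 (1.12), as log2 differences. Lower in T98 were SERPINB2 (−2.45), C3 (−2.43), CD274 (−2.06), NOTCH3 (−1.92), TBX2 (−1.91), EFNB2 (−1.75), XPR1 (−1.70), PDCD1LG2 (−1.69), FN1 (−1.49), LAMA4 (−1.33) and SEL1L3 (−1.29).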

How the results depend on the processing

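All 68 genes kept their sign under each of the 17 alternatives, but the number past the threshold moved widely. For many of these alternatives the kept sign was fixed in advance and adds no support. Dropping the lane term or changing the filter leaves each estimate as it was. Leaving out a library cannot reverse a gene whose lane pairs do not overlap between the lines, which holds for all 68. Without the lane term (no replicate block) 0 genes passed for the difference (0 higher, 0 lower), with 4 for the T98 effect and 8 for the U87 effect. With no filter on low values 0 passed, with 2259 at an unadjusted p under 0.05. A pseudocount of 0.5 left 21 (14 higher, 7 lower). Quantile normalisation gave 25 lower, limma-voom gave 104 (80 higher, 24 lower), and removal of the length trend gave 300 (217 and 83), with 2557 for the U87 effect. Leaving out each library gave 0 to 244 genes (0 to 132 higher, 0 to 112 lower), 0 to 3466 for the T98 effect and 0 to 2432 for the U87 effect. Each such fit keeps 1 residual degree of freedom, and its spread comes from the other line alone. Without single libraries, the difference for STRADB ranged from −0.23 to 0.18, turning positive (0.18 and 0.12), and that for CAB39L from −0.43 to 0.23. The median of the G2/M list stayed between 0.97 and 1.25 and that of the S phase list between 0.68 and 0.88. The other planned tools, edgeR and DESeq2, were not run. With 2 libraries a group, a gene just under the threshold is not shown to respond alike in the lines.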

Other observations

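Some large log2 differences did not pass, in genes that were low in 1 line or uneven between lanes. INHBB, an activin subunit, had 53.1 and 15.1 with control siRNA and 1188 and 134 with LKB1 siRNA in T98, and 4.19 and 0.926 against 1.43 and 2.56 in U87. Its difference was 3.87 (SE 0.79, limma-trend adjusted p = 0.0886), with 5.55 from the lane 2 pairs and 2.18 from the other pairs. IL1B, interleukin-1 beta, had 1607 and 14767 against 8047 and 42397 in U87 and 7.45 and 5.68 against 30.3 and 2.63 in T98, with a difference of −1.42 (adjusted p = 0.438). These genes were picked after their values were seen.

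Metabolic and stress lists held no call for the difference. The ATF4 and amino acid response list had 24 of 29 genes positive (median 0.22), with 9 members rising in T98 and 1 in U87, and the glycolysis and lactate list 21 of 25 (median 0.15), with 7 and 3 rising. The NRF2 and antioxidant list had 22 of 31 genes negative (median −0.15), with 10 members falling in T98 and 4 in U87. The endoplasmic reticulum chaperone list had 11 rises in T98 and 9 in U87 and a median difference of −0.11 over 24 genes. The interferon-stimulated list fell in part in both lines, with 11 members in T98 and 6 in U87. Among all genes tested, 8.48% rose and 7.33% fell in T98, 5.29% rose and 5.91% fell in U87, and 53.7% had a positive difference. These counts in single lines do not test whether the lines differ.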
